A study of Homo sapiens with 6 samples.

Results

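Cholesterol synthesis, sterol handling and the control of both by the SREBP transcription factors were followed here through 29 genes, chosen by gene symbol among the 19202 symbols of the deposited count table. The genes fall into 5 roles: the mevalonate steps (7 genes), the squalene and lanosterol steps (4), the lanosterol to cholesterol steps (8), SREBP control (5), and sterol transport, esterification and receptor degradation (5). All 29 were found in the table, and 27 passed the filter on low counts and were tested. HSD17B7 and STARD4 did not pass it. Uptake is represented by MYLIP and by the lysosomal exporters NPC1 and NPC2, since no lipoprotein receptor is among the 29 genes.

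The libraries were made from MHCC97H, an established line of human liver cancer cells that spreads readily in mice. The control group holds 3 libraries of cells labelled sorafenib sensitive, and the resistant group holds 3 libraries of the sorafenib resistant derivative (SR) of the same line. Sorafenib is a multikinase inhibitor given against advanced liver cancer. The way the resistant cells were selected (clone or pool), the dose, and whether drug was present at harvest were not stated in the labels used here. Nor do the labels say that replicates were separate cultures, and each p-value therefore reflects variation among these 6 libraries alone, possibly technical.

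Cholesterol is built from acetyl-CoA through mevalonate, farnesyl pyrophosphate, squalene and lanosterol. Most genes of the route are switched on by the transcription factor SREBP-2, and SREBP-1 acts mainly on fatty acid synthesis. Both are made as membrane precursors. The escort protein SCAP carries them from the endoplasmic reticulum to the Golgi for cleavage when sterols are low, and the INSIG proteins hold SCAP back when sterols are high. The liver is a main site of both synthesis and clearance of cholesterol.

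Levels are CPM, that is counts brought to a common library size with TMM factors, and means are given ± SD over the 3 libraries of a group. A log2 fold change (log2FC) is resistant over control with its standard error (SE), and "called" means an adjusted p under 0.05 in edgeR's quasi-likelihood test over 10804 tested genes. Library totals ran from 1913469 counts in control replicate 1 to 5345272 in control replicate 2. Levels of cell type markers are given as a description, and they do not by themselves establish the identity of the cells. The summed epithelial markers (KRT8, KRT18, KRT19, CDH1 and EPCAM) stood at 1876 to 2408 CPM in control and 1781 to 2141 CPM in resistant libraries. The summed hepatocyte markers (ALB, APOB, TF, SERPINA1 and TTR) stood at 72.2 to 80.6 CPM in control and 30.6 to 42.1 CPM in resistant libraries. KRT8 and KRT18, with control means of 1276 and 810 CPM, made up nearly all of the epithelial sum. Within it CDH1 fell from 20.9 ± 17.5 (41.1 in control replicate 1) to 8.86 ± 1.68 CPM (log2FC -1.13, SE 0.37, edgeR adjusted p = 0.0219), and EPCAM stood at 0 to 5.14 CPM. Of the hepatocyte markers ALB, APOB and SERPINA1 were called lower. The leukocyte markers summed to at most 7.29 CPM in any library. The endothelial markers PECAM1, VWF and CDH5 summed to 87.2 CPM in resistant replicate 3, with 26.2 CPM of VWF and 19.2 CPM of CDH5, against 29.04 to 46.3 CPM in control libraries and a low of 7.58 CPM in resistant libraries. The fibroblast markers COL1A1, COL1A2 and PDGFRB ran up to 24.8 CPM, also in resistant replicate 3. AFP stood at 0.587 to 4.11 CPM in control and 2.86 to 3.76 CPM in resistant libraries. GPC3, the other marker of liver tumours, was at 0 in control libraries and at most 0.541 CPM in resistant libraries. Without resistant replicate 3, all calls among the 29 genes other than MVK held. The part of these markers in the results was otherwise not tested.

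Upstream sequence is shown for 4 of the genes that fell and for HMGCS1, an enzyme of the same route that did not, so that the changes can be read beside it. The sequences are RefSeq's, on GRCh38.p14, on the strand of the gene, and lie upstream of the RefSeq start. They were kept to stretches outside all exons of GENCODE 29, except for SREBF2, for which 30 bases around a motif are given. Capitals mark matches on either strand that lie whole in the stretch printed. They are to the core of the sterol regulatory element (TCACNCCAC) or to the CCAAT box, bound by NF-Y, a common partner of SREBP.
SREBF2: atgacgcgccaTCACCCCACgcaccgcttc
SREBF1: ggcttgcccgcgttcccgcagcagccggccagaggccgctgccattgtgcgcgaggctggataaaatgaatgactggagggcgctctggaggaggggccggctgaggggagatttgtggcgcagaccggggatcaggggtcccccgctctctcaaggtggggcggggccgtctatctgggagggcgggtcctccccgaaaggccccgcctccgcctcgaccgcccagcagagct
FDPS: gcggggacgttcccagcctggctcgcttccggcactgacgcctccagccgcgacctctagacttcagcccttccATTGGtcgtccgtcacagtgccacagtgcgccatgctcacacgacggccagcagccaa
DHCR7: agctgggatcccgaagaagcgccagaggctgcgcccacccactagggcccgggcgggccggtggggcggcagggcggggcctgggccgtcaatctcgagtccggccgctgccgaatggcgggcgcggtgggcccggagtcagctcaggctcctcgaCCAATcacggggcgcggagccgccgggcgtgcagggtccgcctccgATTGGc
HMGCS1: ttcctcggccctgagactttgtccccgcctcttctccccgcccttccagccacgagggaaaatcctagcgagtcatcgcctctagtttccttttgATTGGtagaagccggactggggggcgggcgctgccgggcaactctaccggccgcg
These stretches are chr22:41832961-41832990 on the plus strand for SREBF2, chr17:17837003-17837236 on the minus strand for SREBF1, chr1:155308616-155308747 on the plus strand for FDPS, chr11:71448436-71448643 on the minus strand for DHCR7 and chr5:43313513-43313662 on the minus strand for HMGCS1. The RefSeq start of DHCR7 lies inside its GENCODE 29 gene span.

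Within the 250 bases before the RefSeq start, found for 26 of the 29 genes, the core TCACNCCAC occurred in SREBF2 alone, from 133 to 125 bases upstream. It was in 0.839% of the 8938 promoters of tested genes that were matched. CCAAT was in 18 of the 26 promoters (69.2%), against 35.4% of the promoters of tested genes. Of the 6 called genes with a promoter, 4 held it, namely MVK, FDPS, DHCR7 and SREBF2, while SREBF1 and LBR did not. HMGCS1, which was not called, held 2 matches in its window, of which 1 lies in the stretch printed. Beside its marked match, FDPS held matches from 122 to 118 and from 51 to 47 bases upstream. The former is cut by the end of the stretch printed and the latter lies outside it. The CCAAT match of SREBF2, from 106 to 102 bases upstream, also lies outside the bases printed. A match of letters is a description and not evidence of binding. The lack of an exact match within these 250 bases is likewise not evidence that a gene has no such element.

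Of the 27 tested genes, 7 were lower in resistant cells and 0 were higher. Among all tested genes 12.3% were called lower and 11.7% higher, against 25.9% and 0% of these genes. At an unadjusted p under 0.05 in edgeR's test, 10 of the 27 were lower and 2 higher (HMGCS1 and LSS). In either direction, 3792 of the 10804 tested genes had such a p. DESeq2 called 0 and limma-voom 1 of the 27 higher. The 7 were the enzyme genes MVK, FDPS, FDFT1, LBR and DHCR7 and the transcription factor genes SREBF1 and SREBF2. Of the 20 genes not called, 13 had a negative and 7 a positive log2FC. The median log2FC was -0.30 over the 27 genes and -0.01 over all tested genes, and the values ran from -1.02 to 0.53. Without control replicate 1 the called genes were 5 lower and 2 higher, the latter being HMGCS1 and LSS. Without resistant replicate 1 the median was -0.13.

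**Figure D1:**
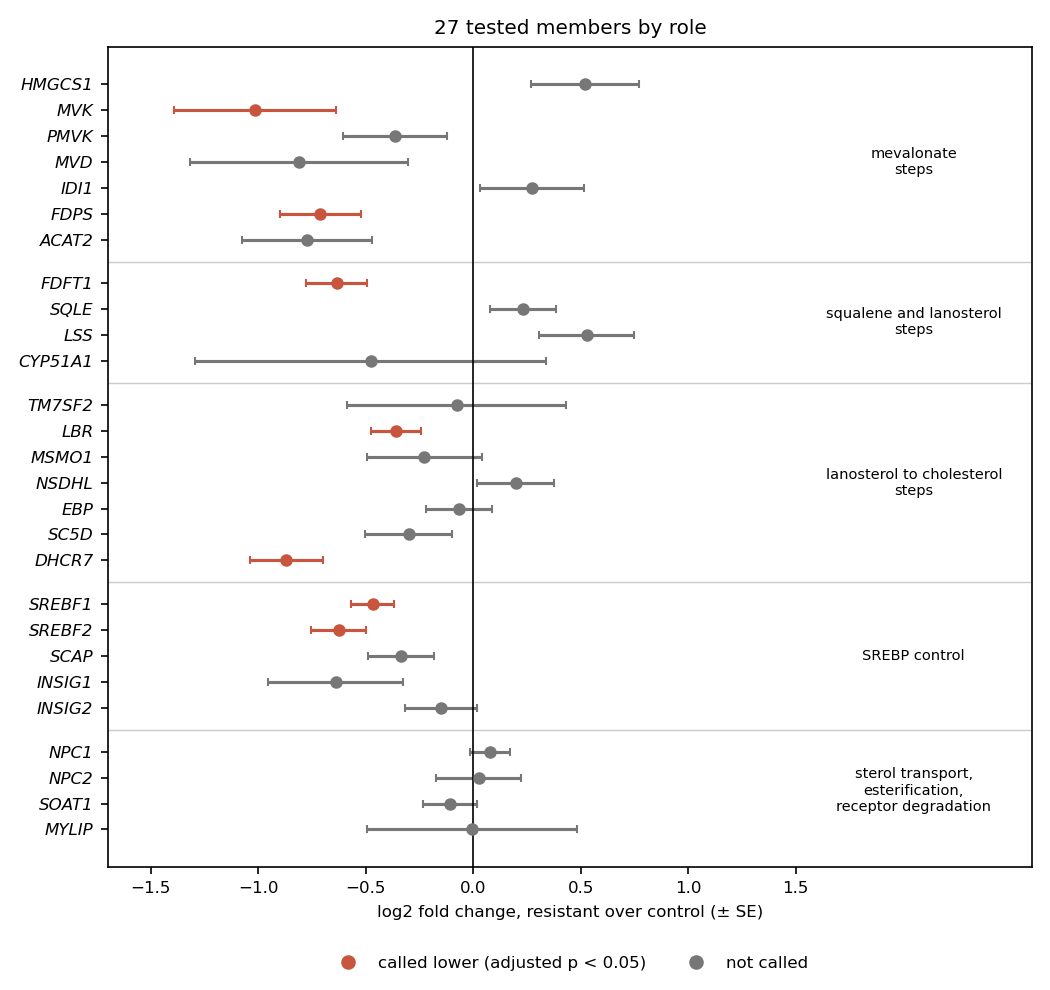
Log2 fold change of each of the 27 tested genes (x axis, resistant over control, bars are 1 SE), ordered by role (y axis). The 7 called genes, all to the left of 0, lie in the 4 upper blocks, and the 4 tested genes of the lowest block lie near 0.

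Every resistant library lay below every control library for 10 of the 27 tested genes (37.0%), against 18.9% of all tested genes, and every resistant library lay above for 1 (3.70%), against 19.2%. The 10 were the 7 called genes with MVD, ACAT2 and SCAP, and the 1 above was LSS. The summed level of all 29 genes was 1733, 1665 and 1680 CPM in control replicates 1, 2 and 3 and 1422, 1531 and 1461 CPM in resistant replicates 1, 2 and 3. The 2 groups of sums did not overlap. The sum includes the 7 called genes and weighs highly expressed genes most, and the mean of SREBF1 alone went from 235 to 169 CPM. Summed over the genes of sterol transport, esterification and receptor degradation, the groups overlapped, at 540 to 608 CPM in control and 556 to 615 CPM in resistant libraries. In bulk RNA, fewer cells of a type and less RNA per cell cannot be told apart.

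**Figure D2:**
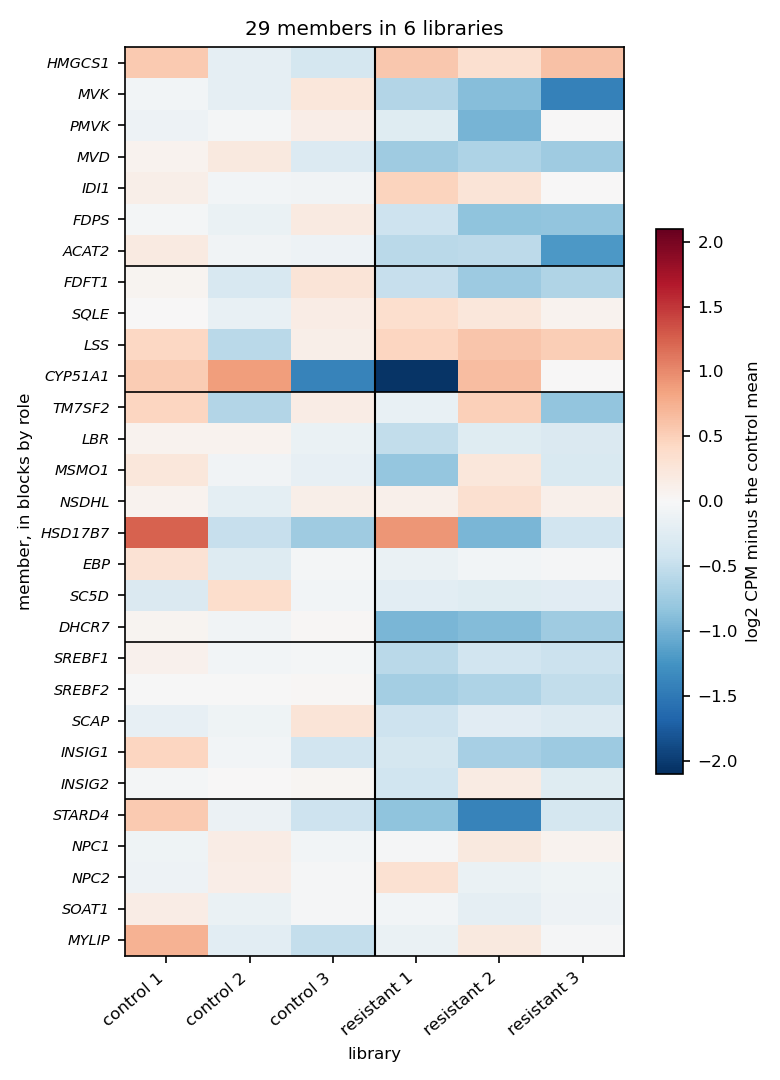
Log2 CPM of the 29 genes (rows, in blocks by role) in the 6 libraries (columns), as the difference from the mean of the control libraries (colour). The rows of DHCR7, SREBF1 and SREBF2 are blue in all 3 resistant libraries. So are those of further genes, among them MVD and ACAT2, which were not called. HSD17B7 and CYP51A1, with 24 control counts each, vary between libraries of the same group.

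Of the 5 genes of SREBP control 2 were lower, 0 higher and 3 not called, and all 5 had a negative log2FC. SREBF2, which encodes SREBP-2, the main activator of the cholesterol genes, stood at 97.7, 97.7 and 101 CPM in control replicates 1, 2 and 3 and at 60.1, 62.8 and 68.7 CPM in resistant replicates 1, 2 and 3. The control libraries lay close together and well above the resistant ones. SREBF2 fell from 98.8 ± 1.85 to 63.9 ± 4.43 CPM (SD, n = 3 each), a log2FC of -0.63 (SE 0.13, edgeR quasi-likelihood adjusted p = 0.000314). It is found on chromosome 22 (41833079 to 41907308, plus strand), where coordinates of genes are spans of GENCODE 29 on GRCh38, matched by symbol.

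SREBF1, which encodes SREBP-1, stood at 251, 226 and 228 CPM in control and at 159, 178 and 172 CPM in resistant replicates 1, 2 and 3. Its groups were also separate. SREBF1 fell from 235 ± 13.7 to 169 ± 9.87 CPM (SD, n = 3 each), a log2FC of -0.47 (SE 0.10, edgeR quasi-likelihood adjusted p = 0.000521). Both calls held in all 14 alternatives. SREBF1 is found on chromosome 17 (17810399 to 17837002, minus strand), and some of its exons overlap exons of RAI1 on the other strand, which had a log2FC of 0.16 (SE 0.11). No label states whether counting used strand, so reads of the overlap cannot be told apart. Per kilobase of exon, SREBF1 had the higher level of the pair in every library, with a ratio to SREBF2 of 2.13 to 2.42 in control and 2.35 to 2.67 in resistant libraries. These ranges overlapped.

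The escort SCAP stood at 55.5, 58.9 and 75.4 CPM in control and at 46.3, 53.1 and 51.4 CPM in resistant replicates 1, 2 and 3. The groups did not overlap, but the log2FC of -0.34 (SE 0.15) did not pass edgeR's quasi-likelihood test (adjusted p = 0.107), and it passed in none of the 14 alternatives. INSIG1, itself a target of SREBP and a retention factor for SCAP, had 21.6, 14.9 and 11.7 CPM in control and 11.9, 9.40 and 9.002 CPM in resistant replicates. Its resistant replicate 1 lay just above control replicate 3, and its log2FC of -0.64 (SE 0.31) was not called (edgeR adjusted p = 0.137). The other retention factor, INSIG2, had 47.3 to 50.2 CPM in control and 36.5 to 55.0 CPM in resistant libraries, with a log2FC of -0.15 (SE 0.17).

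**Figure D3:**
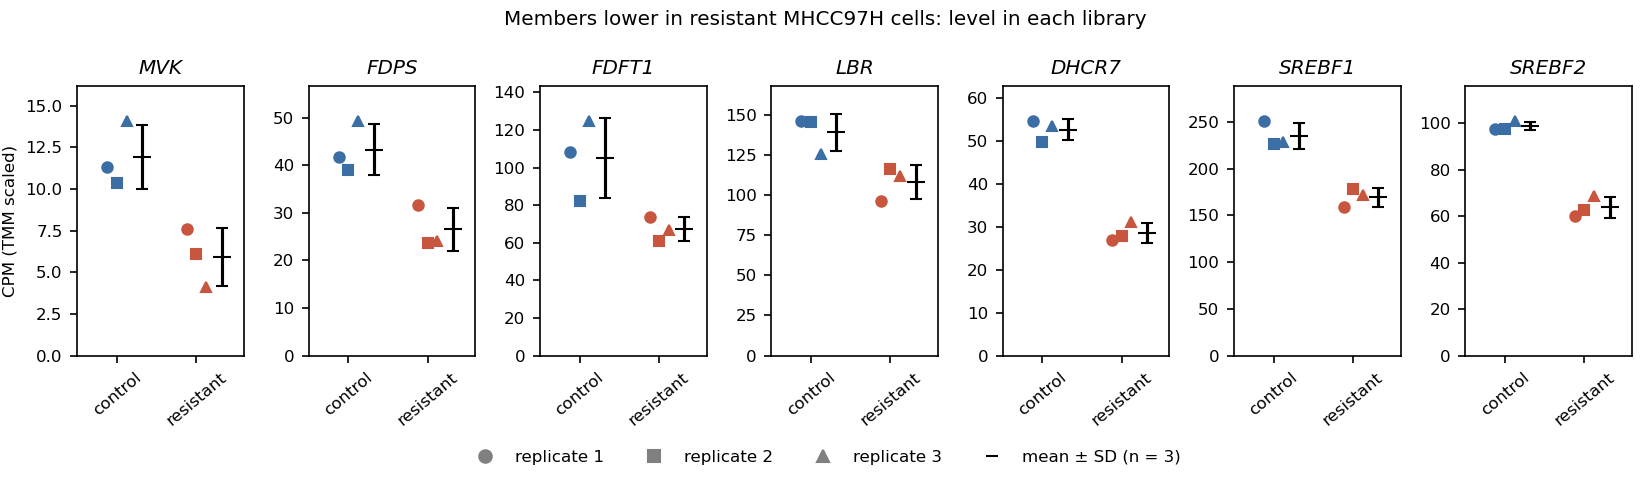
Level of the 7 called genes in each library (y axis, CPM, from 0 with a scale of its own in each panel; circles, squares and triangles are replicates 1, 2 and 3, bars are mean ± SD, n = 3). In every panel the 3 resistant libraries lie below the 3 control libraries, and SREBF2 and DHCR7 have the widest gaps relative to their spread.

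Of the 7 genes of the mevalonate steps, which lead to farnesyl pyrophosphate, 2 were lower, 0 higher and 5 not called, and the median log2FC was -0.71. Without control replicate 3, 0 of the 7 were called. FDPS, the synthase of farnesyl pyrophosphate, stood at 41.6, 39.0 and 49.3 CPM in control and at 31.7, 23.7 and 24.1 CPM in resistant replicates 1, 2 and 3. All resistant libraries were lower than the control libraries. FDPS fell from 43.3 ± 5.35 to 26.5 ± 4.47 CPM (SD, n = 3 each), a log2FC of -0.71 (SE 0.19, edgeR quasi-likelihood adjusted p = 0.00421). The adjusted p was 0.0505 without control replicate 3, the highest of the control libraries.

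FDPS is found on chromosome 1 (155308748 to 155320666, plus strand), in a stretch where many genes were lower: of the 83 other tested genes with their middle within 2 Mb, 41 were called lower and 3 higher, and their median log2FC was -0.40. The part of this stretch in the FDPS result was not tested. Phosphomevalonate kinase, PMVK, lies in the same stretch (154924734 to 154936991, minus strand) and had 23.1, 24.3 and 27.6 CPM in control and 20.8, 12.5 and 24.96 CPM in resistant replicates. Its groups overlapped, and the log2FC of -0.36 (SE 0.24) was not called (edgeR adjusted p = 0.291). Around the other called genes on the same distance, the median log2FC of the neighbours ran from -0.16 for FDFT1 to 0.16 for LBR. FDPS also has 8 pseudogenes that carry its name in GENCODE 29, so reads could be shared between copies.

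Mevalonate kinase, MVK, stood at 11.3, 10.4 and 14.1 CPM in control and at 7.58, 6.11 and 4.09 CPM in resistant replicates. The groups were separate, at a level resting on 125 control and 74 resistant counts. MVK fell from 11.9 ± 1.93 to 5.93 ± 1.75 CPM (SD, n = 3 each), a log2FC of -1.02 (SE 0.38, edgeR quasi-likelihood adjusted p = 0.0458), and it was the only one of the 7 that changed at least 2-fold. The call is close to the threshold: it was lost with other filters on low counts, with the replicate block, and without any library but resistant replicate 1, with adjusted p from 0.0269 to 0.187 over the 14 alternatives. MVK is found on chromosome 12 (109573255 to 109598117, plus strand). Its exons overlap those of MMAB on the other strand, which had a log2FC of -0.64 (SE 0.27, edgeR adjusted p = 0.0784) and was not called.

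The remaining genes of these steps divided. ACAT2, the cytosolic thiolase that makes acetoacetyl-CoA, had 19.5, 16.2 and 15.8 CPM in control and 11.4, 11.5 and 7.16 CPM in resistant replicates. These groups did not overlap, but the log2FC of -0.77 (SE 0.30) just missed the threshold (edgeR adjusted p = 0.0572), and it passed in limma-voom (0.0406). Its exons overlap those of TCP1 on the other strand (log2FC -0.19). The decarboxylase MVD had 4.69 to 6.78 CPM in control and 3.25 to 3.53 CPM in resistant libraries, with a log2FC of -0.81 (SE 0.51), on 64 and 43 counts.

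HMGCS1 and IDI1 had positive values. HMGCS1, the synthase of HMG-CoA, stood at 24.2, 14.3 and 12.6 CPM in control and at 24.4, 20.7 and 25.4 CPM in resistant replicates. Control replicate 1 was at the level of the resistant libraries, and the other control libraries were lower. The log2FC of 0.52 (SE 0.25) was not called (edgeR adjusted p = 0.136), and without control replicate 1 it was 0.80 and called higher (0.0243). The isomerase IDI1 had 17.02 to 19.5 CPM in control and 18.0 to 24.9 CPM in resistant libraries, with a log2FC of 0.27 (SE 0.24). Per kilobase of exon, the ratio of HMGCS1 to FDPS was 0.459, 0.290 and 0.202 in control and 0.608, 0.689 and 0.831 in resistant replicates 1, 2 and 3. These ratios did not overlap between the groups, in a pair picked after its values were seen, and no test was made.

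Of the 4 genes of the squalene and lanosterol steps, 1 was lower, 0 higher and 3 not called. FDFT1, squalene synthase, takes farnesyl pyrophosphate into sterol synthesis. It stood at 108, 82.3 and 125 CPM in control and at 73.6, 61.1 and 66.9 CPM in resistant replicates 1, 2 and 3. The control libraries varied widely, yet the lowest of them was above the highest resistant library. FDFT1 fell from 105 ± 21.4 to 67.2 ± 6.26 CPM (SD, n = 3 each), a log2FC of -0.64 (SE 0.14, edgeR quasi-likelihood adjusted p = 0.000702), and was called in all 14 alternatives.

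The enzymes of the next steps were not called. SQLE, the squalene epoxidase and a rate-limiting step after squalene, had 48.8, 43.7 and 54.3 CPM in control and 62.5, 57.8 and 51.6 CPM in resistant replicates, with a log2FC of 0.23 (SE 0.15, edgeR adjusted p = 0.301). Its groups overlapped. LSS, the cyclase that forms lanosterol, had 30.9, 15.3 and 24.9 CPM in control and 31.1, 34.3 and 32.9 CPM in resistant replicates. All resistant libraries lay above the control libraries, the lowest of them only just. The log2FC of LSS was 0.53 (SE 0.22, edgeR adjusted p = 0.0772), and it was called higher in limma-voom (0.0164), on halved counts (0.0442) and without control replicate 1 (0.0208). CYP51A1, the lanosterol demethylase, was low, with 24 control and 20 resistant counts in all and 0 in resistant replicate 1. It has 3 pseudogenes of its name, so its reads could be split between copies, and its log2FC of -0.48 (SE 0.82) carries little information.

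Of the 7 tested genes of the steps from lanosterol to cholesterol, 2 were lower, 0 higher and 5 not called. DHCR7, the last reductase of the route that passes through 7-dehydrocholesterol, stood at 54.5, 49.7 and 53.4 CPM in control and at 26.8, 27.7 and 31.1 CPM in resistant replicates 1, 2 and 3. The gap between the groups was wider than the range within either. DHCR7 fell from 52.5 ± 2.504 to 28.5 ± 2.26 CPM (SD, n = 3 each), a log2FC of -0.87 (SE 0.17, edgeR quasi-likelihood adjusted p = 0.000156). Its mean fell by 45.7%, and its p was the lowest of the 27. The call held in all 14 alternatives. DHCR7 is found on chromosome 11 (71428193 to 71452868, minus strand).

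LBR, the lamin B receptor, carries a sterol reductase domain and shares that step with TM7SF2. It stood at 146, 146 and 126 CPM in control and at 96.4, 116 and 112 CPM in resistant replicates. The groups were separate by a small margin. LBR fell from 139 ± 11.7 to 108 ± 10.5 CPM (SD, n = 3 each), a log2FC of -0.36 (SE 0.12, edgeR quasi-likelihood adjusted p = 0.0195). The call was lost without control replicate 1 (0.0717), control replicate 2 (0.0845) or resistant replicate 1 (0.115). LBR is found on chromosome 1 (225401502 to 225428925, minus strand). TM7SF2 had 3.39 to 7.71 CPM in control and 2.86 to 7.99 CPM in resistant libraries, with a log2FC of -0.08 (SE 0.51). Its exons overlap those of VPS51 on the same strand, so reads of the overlap could be counted for either gene.

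Other enzymes of these steps had overlapping groups. MSMO1, the methylsterol monooxygenase, had 17.6 to 23.7 CPM in control and 11.1 to 23.5 CPM in resistant libraries (log2FC -0.23, SE 0.27). NSDHL, the sterol dehydrogenase acting after it, had 29.002 to 36.7 and 36.0 to 42.6 CPM (log2FC 0.20, SE 0.18), and EBP, the sterol isomerase, 49.5 to 74.0 and 54.1 to 58.3 CPM (log2FC -0.07, SE 0.15). The desaturase SC5D, whose product DHCR7 reduces, had 24.7, 39.7 and 29.3 CPM in control and 25.6 to 26.3 CPM in resistant libraries (log2FC -0.30, SE 0.20). DHCR7 and SC5D act in direct succession, and only the former was called; the difference between them was not tested. HSD17B7, the ketosteroid reductase, was not tested, with 24 control and 30 resistant counts and 2 pseudogenes of its name. It had 6.17, 1.51 and 1.17 CPM in control and 4.87, 0.940 and 1.64 CPM in resistant replicates, so replicate 1 was the highest of each group.

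Over all steps of synthesis, 5 of 18 tested genes were lower and 0 higher, and the median log2FC was -0.33. The called genes did not form a continuous stretch of the route. PMVK, MVD and IDI1 act between MVK and FDPS and were not called, and IDI1 had a positive value. MVD, on 64 control and 43 resistant counts, had a log2FC of -0.81, against -0.71 for FDPS. Differences between called and uncalled steps were not tested. FDPS and FDFT1 make and use farnesyl pyrophosphate, and LBR and DHCR7 act late in the route. SQLE and LSS, which act between FDFT1 and LBR, had positive values that were not called.

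Of the 5 genes of sterol transport, esterification and receptor degradation, 4 were tested and 0 were called in edgeR or in any of the 14 alternatives, and 0 had an unadjusted p under 0.05. NPC1, the membrane exporter of cholesterol from lysosomes, had 401, 479 and 410 CPM in control and 419, 496 and 450 CPM in resistant replicates. It was the most highly expressed of the 29 genes per kilobase of exon in both groups, at 42.6 and 45.0 CPM per kilobase. Its log2FC of 0.08 had a 95% interval (from its SE) of -0.11 to 0.26. NPC2, the soluble lysosomal carrier that hands cholesterol to NPC1, had 27.3 to 32.4 and 26.8 to 36.8 CPM (log2FC 0.03, interval -0.36 to 0.41). Its exons overlap those of ISCA2 on the other strand, so that the caution given for SREBF1 applies.

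SOAT1, which esterifies cholesterol for storage, had 108, 88.1 and 94.8 CPM in control and 93.1, 84.4 and 90.0 CPM in resistant replicates. Its groups overlapped, and its log2FC of -0.11 had an interval of -0.35 to 0.14. MYLIP, the ubiquitin ligase that sends lipoprotein receptors to degradation and is induced by LXR, had 4.11 to 10.3 CPM in control and 5.41 to 7.05 CPM in resistant libraries. Its log2FC of -0.01 had an interval of -0.96 to 0.95, so a 1.5-fold change in either direction is not excluded at this depth. The sterol carrier STARD4, an SREBP target, was not tested, with 34 control and 22 resistant counts, or 3.50 ± 1.46 and 1.67 ± 0.759 CPM (SD, n = 3 each).

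Per kilobase of exon, the order of the genes in control put SREBF1 (29.3), LBR (26.5), EBP (25.1) and FDFT1 (20.2 CPM per kilobase) after NPC1, and MVD (1.25), HSD17B7 (0.617), STARD4 (0.616) and CYP51A1 (0.582 CPM per kilobase) last. In resistant libraries DHCR7 moved from rank 10 to rank 15 and SQLE from rank 13 to rank 7. SQLE itself was not called, at 11.4 CPM per kilobase in control and 13.3 in resistant cells. A rank also moves when other genes fall, as FDFT1 did from 20.2 to 12.9 CPM per kilobase. Close neighbours in this order can overlap: the control libraries of EBP overlapped those of both SREBF1 and LBR.

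Other genes of the pathway were taken from 6 lists holding 64 genes, of which 59 were tested: 15 were lower (25.4%) and 7 higher (11.9%). Among all tested genes 12.3% were called lower and 11.7% higher, so the share called higher was near that of all genes. The same shares are the background for the counts of each list below. The median log2FC of the 59 genes was -0.15. Without control replicate 2 or control replicate 3, 4 were called higher. Of the genes around LXR, the oxysterol receptor that drives cholesterol export, 4 of 7 tested were lower and 0 higher. NR1H3, which encodes LXR alpha, fell from 14.1 ± 3.57 to 3.99 ± 0.659 CPM (log2FC -1.77, SE 0.39, edgeR adjusted p = 0.0008). ABCA1, the exporter, fell from 245 ± 19.8 to 102 ± 16.7 CPM (log2FC -1.26, SE 0.11). The LXR partner RXRA had a log2FC of -0.55 (SE 0.13). These calls held in all 14 alternatives.

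Of the genes that process SREBP or set its regulated degradation, 3 of 11 were lower and 2 higher. MBTPS1, the Golgi protease that makes the first cut in SREBP, fell from 89.7 ± 10.4 to 55.3 ± 11.7 CPM (log2FC -0.68, SE 0.15, edgeR adjusted p = 0.000702). PAQR3, a Golgi protein reported to anchor SCAP and SREBP, rose from 29.2 ± 3.10 to 81.8 ± 5.75 CPM (log2FC 1.503, SE 0.16, edgeR adjusted p = 1.67e-09). Both calls held in all 14 alternatives.

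The fatty acid genes that SREBP activates went both ways, 4 of 12 lower and 3 higher. The desaturases FADS2 (log2FC -1.20, SE 0.15) and SCD (-0.43, SE 0.09) were lower, and MID1IP1, an activator of acetyl-CoA carboxylase, was higher (0.73, SE 0.14). FADS2 had 129 ± 29.6 and 55.1 ± 12.8 CPM and SCD 396 ± 22.2 and 293 ± 13.97 CPM in control and resistant cells (SD, n = 3 each). Of the genes of lipoprotein uptake and intracellular sterol transport, 3 of 14 were lower and 0 higher. They include SCARB1, the receptor for high-density lipoprotein, which fell from 402 ± 37.8 to 283 ± 20.9 CPM (log2FC -0.51, SE 0.10), and also the endosomal sterol carrier STARD3, at a log2FC of -0.66 (SE 0.22). The STARD3 call was lost without control replicate 2 (edgeR adjusted p = 0.138), control replicate 3 (0.0662) or resistant replicate 2 (0.125).

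In the branches that use farnesyl pyrophosphate for other products, 0 of 11 tested genes were lower and 2 higher in edgeR (1 and 3 at an unadjusted p under 0.05). DHDDS, of dolichol synthesis, rose from 23.4 ± 7.71 to 39.6 ± 5.10 CPM (log2FC 0.72, SE 0.21), and PDSS1, of ubiquinone synthesis, from 5.92 ± 1.58 to 12.6 ± 2.47 CPM (log2FC 1.03, SE 0.36). The DHDDS call was lost without control replicate 3 (edgeR adjusted p = 0.0898) or resistant replicate 1 (0.0537), and the PDSS1 call without control replicate 1 (0.0892), control replicate 2 (0.0649) or resistant replicate 1 (0.148). The difference between the branches and the sterol steps was not tested. Of 4 tested further genes of sterol synthesis, 1 was lower and 0 higher.

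**Figure D4:**
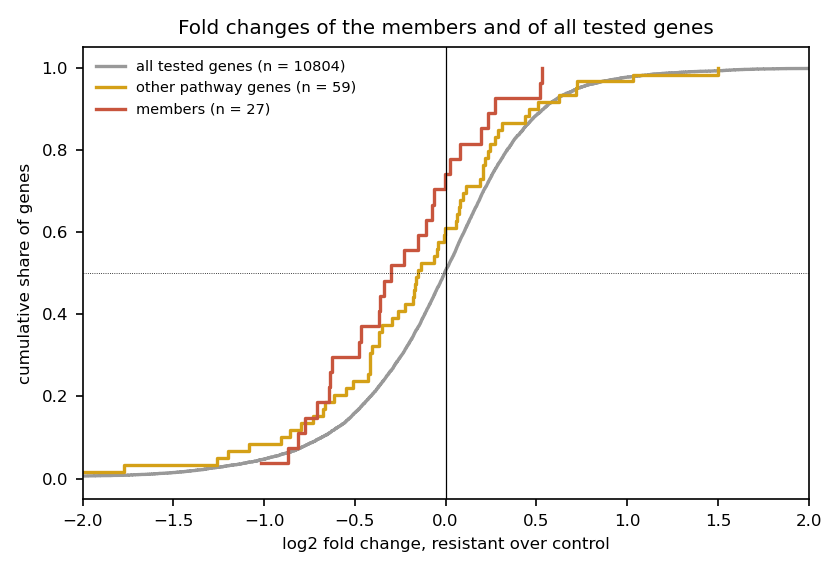
Cumulative share of genes (y axis) by log2 fold change, resistant over control (x axis, cut at -2 and 2), for the 27 tested genes, the 59 tested other genes of the pathway and all 10804 tested genes. The medians, where the curves cross the dotted line, are -0.30, -0.15 and -0.01.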

How the data were processed

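Total RNA of 6 MHCC97H libraries was sequenced, 3 control and 3 resistant. Bowtie2, HISAT2 and Trimmomatic appear in the submitters' processing notes, with neither version nor role. The counter, build, annotation and strand setting: not given in the sources used here. The authors deposited raw, unnormalized counts for each gene symbol, and the 6 single tables equalled the table of the series. Of the non-zero counts 63.6 to 69.1% were even, and of those from 1 to 20, 81.8 to 88.5%, where 50% would be even without an excess. This is why halved counts were tried. Counts of genes are given as deposited, so low ones may rest on fewer independent reads than their number. Replicates differed beyond sampling noise (chi-square over its degrees of freedom 1.77 to 2.85, halved counts), and all were kept as separate.

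Symbols turned into dates (27) were renamed from the Entrez ID. Genes passing filterByExpr (10804) were scaled by TMM and tested with edgeR 4.0.16 in R 4.3.3 (quasi-likelihood F test, group as the only term, Benjamini-Hochberg over all tested genes, calls at 0.05), checked on simulated data. The SE is the size of the log2FC over the square root of F. Alternatives were 2 filters, scaling by RLE or by library totals, limma-voom (limma 3.58.1), DESeq2 1.42.0, halved counts, a replicate block and leaving out each library, 14 in all. Exon lengths are the union of GENCODE 29 exons. All 29 genes are named, and of each other list up to 3 called genes with the smallest p; some genes of these lists are not reported here. The genes, lists and alternatives were chosen with earlier results of these data known, and the motifs after the promoters were seen. No label used here states that same-numbered libraries were paired, and the main fit did not pair them. With 3 libraries in each group, the correlations between same-numbered libraries given below cannot decide whether they were.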

Additional observations from a re-analysis of the deposited data

How the results depend on the processing

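The count of all called genes (2601) stayed within 1.5 times of that value in all 14 alternatives. Of the 7 called genes, DHCR7, SREBF1, SREBF2 and FDFT1 were called in each of them, FDPS in 13, LBR in 11 and MVK in 6. The number called lower was 5 to 6 when 1 library was left out, and the number called higher 0 to 2. With limma-voom 1 was called higher, and with halved counts 1. The median log2FC was -0.21 with halved counts, and it ranged from -0.35 to -0.13 when 1 library was left out. The direction turned in genes that were not called under any alternative. With 1 library left out, the log2FC of CYP51A1 ran from -0.98 to 0.068, TM7SF2 from -0.52 to 0.24, EBP from -0.21 to 0.090, NPC2 from -0.12 to 0.12 and MYLIP from -0.23 to 0.41. In limma-voom EBP had 0.0025, NPC2 -0.022 and MYLIP 0.17. With halved counts NPC2 had -0.0089 and MYLIP 0.058. MYLIP had 0.0042 with no filter, 0.0088 with a minimum of 1 CPM in 3 libraries, and 0.042 with the replicate block. The cause was not tested. With the replicate block 6 genes were called lower (MVK was lost) and 0 higher, 2518 of all genes were called, and the median log2FC was -0.27. Same-numbered libraries had correlations of their deviations of -0.0150, 0.0330 and -0.0065, and control replicates 1 and 3 did not correlate best with their own number. Low levels limit CYP51A1, HSD17B7, STARD4, MVD, TM7SF2 and MYLIP.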
